A study of Mus musculus with 24 samples.

Results

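The 8 kidney libraries of the D18 line were compared: 5 from RC/- D18 mice (replicates 18 to 22) against 3 from RC/+ D18 mice (replicates 7 to 9), chosen by their genotype labels from 24 libraries. Each library holds the RNA-seq read counts of the whole right kidney of 1 mouse on the C57BL/6 background (C57BL/6 J in the study's methods), killed at 18 days of age. All 8 mice carry the RC allele of *Pkd1*, a hypomorphic missense allele, and on that allele the binding motif of miR-17 in the 3′-UTR had been deleted by CRISPR/Cas9. In RC/- D18 mice the other allele is floxed and is deleted by a Cre that the Ksp (*Cdh16*) promoter drives in renal tubules. In RC/+ D18 mice the floxed allele stays intact because Cre is absent, so the presence of Cre and the loss of *Pkd1* cannot be told apart here. The D18 line comes from 1 founder. The unedited RC/- (5) and RC/+ (3) mice carry the same alleles with the miR-17 motif present, and RC/- D53 (5) and RC/+ D53 (3) mice carry the deletion from another founder.

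*Pkd1* encodes polycystin-1, a membrane protein of the tubule epithelium and its primary cilium. Loss of its dose below a threshold makes tubules dilate into cysts, and collecting duct epithelium is a common place of origin. The miRNA miR-17 binds *Pkd1* mRNA through its seed and lowers the amount of polycystin-1, so a *Pkd1* allele without the motif is relieved of that repression. The question addressed here is which transcripts still separated cystic-genotype from control kidneys once the remaining *Pkd1* allele could not be bound by miR-17.

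The mature miRNA and the motif that the D18 line lacks are shown because they define the line. The mature miR-17-5p, from RefSeq (GRCm38.p6, chr14:115043684-115043706, plus strand), has its seed, bases 2 to 8, in capitals, and the *Pkd1* window (GENCODE M21, GRCm38, chr17:24595716-24595745, plus strand, exon 46, 3′-UTR) has the bases complementary to that seed in capitals.
miR-17-5p: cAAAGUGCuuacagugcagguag
Pkd1 site: cacatatggggcttctGCACTTTaaaaagg
The complement of the seed occurs 1 time in the 969 bases of the annotated 3′-UTR of *Pkd1*.

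The 8 libraries held 20869159 to 28140795 counts. Read from *Xist* and *Ddx3y*, RC/+ D18 comprised 2 females and 1 male and RC/- D18 3 females and 2 males. No library pair within either group was a copy, with a chi-square per degree of freedom of 8.45 to 48.2 over the 13 pairs. *Pkd1* itself stood at 56.9, 62.7 and 65.6 CPM (the count as a share of its library's total, on a common scale) in the RC/+ D18 libraries and at 58.1, 71.4, 60.2, 61.0 and 53.8 CPM in RC/- D18 replicates 18 to 22. The groups overlapped (log2 fold change -0.02 ± 0.12 SE, limma-trend adjusted p = 0.988), and the whole-gene count includes reads from any transcript that the floxed allele still makes. *Cdh16*, whose promoter drives the Cre and which marks tubule epithelium, was abundant in all 8 libraries, at 1469 to 1557 CPM in RC/+ D18 and 1579 to 1876 CPM in RC/- D18.

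RC/- D18 replicates 20 to 22 carried skeletal muscle transcripts. They are part of the main fit, so fold changes, p-values and counts include them unless stated otherwise. Values without them are given beside some results. The summed level of 25 skeletal muscle genes was 24.9, 31.4 and 37.0 CPM in RC/+ D18, while RC/- D18 replicates 18 and 19 were at 36.2 and 39.3 CPM and replicates 20, 21 and 22 at 282, 259 and 294 CPM. The last 3 libraries lay far above the other 5, and all 5 RC/- D53 libraries lay at the same height, between 242 and 320 CPM. *Ckm*, muscle creatine kinase, was at 0 in all RC/+ D18 libraries and in RC/- D18 replicates 18 and 19, and *Acta1*, skeletal actin, was at 4.44 to 6.56 CPM in RC/+ D18, 6.18 and 7.52 CPM in replicates 18 and 19, and 45.1 to 47.9 CPM in replicates 20 to 22. Of the 23 list members that could be tested, all had a positive log2 fold change and 4 passed the test. The median log2 fold change of the list was 2.49 with all libraries and 0.13 without replicates 20 to 22, beside medians over all genes tested of 0.04 and 0.08.

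**Figure D1:**
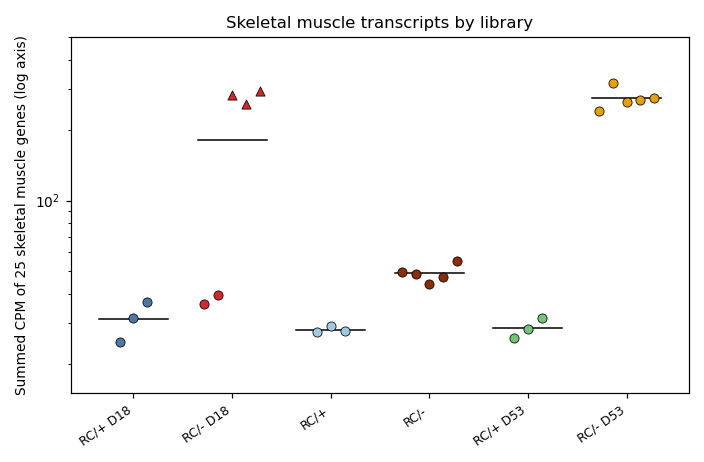
Summed CPM of 25 skeletal muscle genes (vertical axis, log scale) in each of the 24 libraries, by group; points are libraries, triangles are RC/- D18 replicates 20 to 22, and lines are group means. RC/- D18 splits into 36.2 and 39.3 CPM against 259 to 294 CPM, the height of the 5 RC/- D53 libraries.

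In the D18 line 60 of 22570 genes passed an adjusted p of 0.05 in limma-trend, and 59 of them were higher in RC/- D18. These are 0.261% of all genes tested for increases and 0.00443% for decreases. At an unadjusted p of 0.05, 1522 genes (6.74%) were higher and 489 (2.17%) were lower. The higher genes included *Gata3*, *Gata2*, *Hsd11b2* and *Trpv6*, which are known from collecting duct and distal epithelium, components of epithelial junctions (*Dsp*, *Itgb4*, *Krt80*), 5 processed pseudogenes of ribosomal protein genes and 4 genes of skeletal muscle. All 60 called genes kept their sign without replicates 20 to 22. This had to follow, because in each of them every RC/- D18 library lay on the same side of all controls. The call itself was retained without these replicates by 2, the pseudogenes *Gm14165* and *Gm8730*. In that comparison of 2 against 3 libraries, 2030 genes (8.99%) were higher at an unadjusted p of 0.05. The count also rested on single libraries: 14 genes passed without RC/+ D18 replicate 8, 27 without RC/+ D18 replicate 7, 23 without RC/- D18 replicate 21, 90 without RC/+ D18 replicate 9 and 98 without RC/- D18 replicates 18 and 19 (21 of them muscle genes), and a fit of the 8 D18 libraries alone called 12.

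Across all genes tested, the 5 RC/- D18 libraries lay entirely above the 3 RC/+ D18 libraries for 868 genes (3.85%) and entirely below for 431 (1.91%). Each of the 60 called genes was among these, which the choice by the same contrast favours and from which nothing is read. Of the 55 genes that were higher and no member of the muscle list, the median log2 fold change was 0.77 with all libraries and 0.74 without replicates 20 to 22. The second median is favoured too, because these genes were chosen by a contrast that includes the libraries left. It therefore does not show whether the calls depend on replicates 20 to 22.

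**Figure D2:**
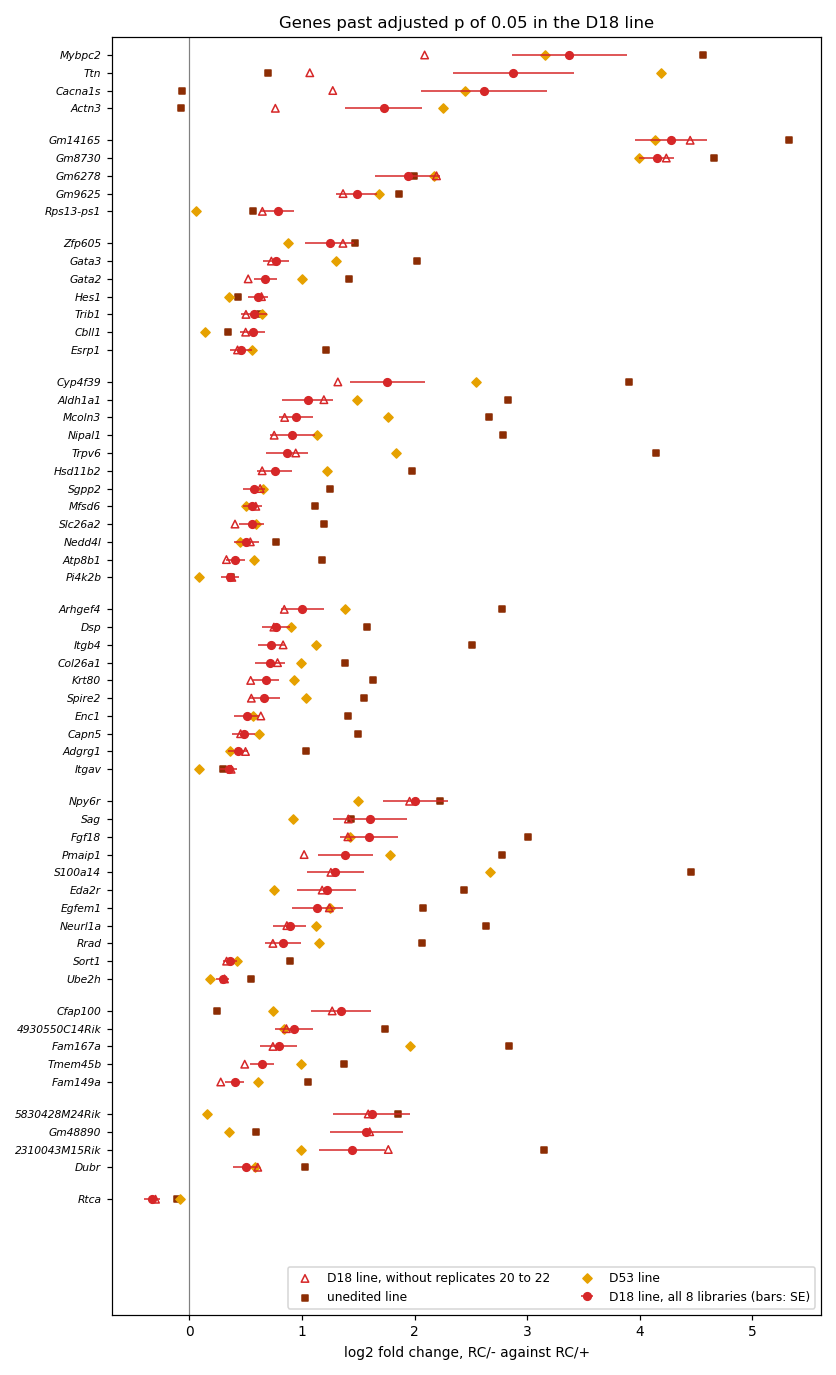
Log2 fold change of RC/- against RC/+ (horizontal axis) for 59 of the 60 genes that passed in the D18 line, grouped by role; filled circles with SE bars are the D18 line, open triangles the D18 line without RC/- D18 replicates 20 to 22, squares the unedited line and diamonds the D53 line. The muscle genes at the top fall to between 0.76 and 2.09 without replicates 20 to 22. The median of the other 55 higher genes goes from 0.77 to 0.74. Their choice by a contrast that includes the libraries left favours a high median there, so nothing is read from it. Of all 60 genes, 49 are nearer to 0 in the D18 than in the unedited line.

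Among the transcription factors that were higher, *Gata3* and *Gata2* are known from the collecting system. *Gata3*, which specifies the nephric duct and marks the collecting duct, stood at 21.3, 22.1 and 21.2 CPM in RC/+ D18 and at 36.4, 35.03, 35.4, 37.6 and 39.2 CPM in RC/- D18 replicates 18 to 22. All 5 RC/- D18 libraries were above all 3 controls, with replicates 18 and 19 at the same height as replicates 20 to 22 (log2 fold change 0.77 ± 0.12 SE, adjusted p = 0.00209). *Gata2*, its paralogue with a role in collecting duct water transport, was at 48.9, 44.0 and 47.2 CPM in RC/+ D18 and 65.2, 68.9, 72.9, 86.1 and 80.8 CPM in RC/- D18 (0.67 ± 0.10, adjusted p = 0.00209). Here replicates 18 and 19 were the lowest of the cystic-genotype libraries and still above the controls. In whole kidneys, more cells of a type and more RNA per cell cannot be told apart.

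*Hes1*, a Notch-responsive repressor, was at 52.8, 52.6 and 64.8 CPM in RC/+ D18 and 82.0 to 92.4 CPM in RC/- D18 (0.60 ± 0.09, adjusted p = 0.00209). *Esrp1*, a splicing regulator of epithelial cells, rose by 0.46 on the log2 scale. *Trib1*, a pseudokinase that steers protein degradation, rose by 0.57, the ubiquitin ligase gene *Cbll1* by 0.56 and the zinc finger gene *Zfp605* by 1.25. The median log2 fold change of the 8 called regulators was 0.59.

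Of the called genes, 12 were grouped, after calling, as transport and metabolic genes. *Hsd11b2*, which inactivates glucocorticoid in aldosterone-sensitive tubule cells, was at 258, 241 and 222 CPM in RC/+ D18 and at 357, 394, 351, 512 and 431 CPM in RC/- D18 (log2 fold change 0.76 ± 0.15 SE, adjusted p = 0.0325). *Trpv6*, an epithelial calcium channel, was at 2.66, 3.67 and 4.06 CPM and at 6.70, 6.56, 4.94, 7.45 and 5.97 CPM (0.86 ± 0.19, adjusted p = 0.0469). *Mcoln3*, an endolysosomal cation channel, was at 31.2, 43.5 and 36.4 CPM and at 65.1 to 89.7 CPM, with replicate 21 at the top (0.95 ± 0.15, adjusted p = 0.00298). In each of these genes the groups were separate, as in all 60 called genes.

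*Nedd4l*, the ubiquitin ligase that removes the epithelial sodium channel from the membrane, rose by 0.51 on the log2 scale. *Aldh1a1*, a retinaldehyde dehydrogenase, was at 6.18, 4.44 and 10.2 CPM in RC/+ D18 and 10.98 to 19.7 CPM in RC/- D18 (1.05 ± 0.23, adjusted p = 0.0469). *Slc26a2*, a sulphate transporter, rose by 0.55, the magnesium transporter gene *Nipal1* by 0.91 and *Atp8b1*, a phospholipid flippase, by 0.41. *Cyp4f39*, a fatty acid hydroxylase, was near the limit of detection in the controls, at 0.163 to 0.261 CPM, and at 0.432 to 1.95 CPM in RC/- D18. *Sgpp2*, which removes phosphate from sphingosine 1-phosphate, rose by 0.57, *Mfsd6* by 0.56 and the lipid kinase gene *Pi4k2b* by 0.36.

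Genes of adhesion, junctions and the cytoskeleton rose in 10 cases. *Dsp*, desmoplakin of the desmosome, was at 58.2, 61.0 and 71.0 CPM in RC/+ D18 and at 107, 106, 115, 100.9 and 111 CPM in RC/- D18 (log2 fold change 0.77 ± 0.12 SE, adjusted p = 0.00298). *Itgb4*, the integrin of the hemidesmosome, was at 11.2, 11.8 and 14.3 CPM and at 23.1, 21.1, 21.7, 19.9 and 17.4 CPM (0.73 ± 0.12, adjusted p = 0.0058), and replicates 18 and 19 lay within or above the range of replicates 20 to 22. *Krt80*, an epithelial keratin, was at 8.84 to 12.6 CPM and 15.1 to 19.3 CPM (0.68 ± 0.12, adjusted p = 0.00832).
*Itgav*, the alpha-v integrin subunit, rose by 0.35, the adhesion receptor gene *Adgrg1* by 0.43 and the collagen gene *Col26a1* by 0.72. *Arhgef4*, an exchange factor for small GTPases, rose by 1.004, the actin nucleator gene *Spire2* by 0.67, *Enc1*, which encodes an actin-associated kelch protein, by 0.51 and the calpain gene *Capn5* by 0.48.

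**Figure D3:**
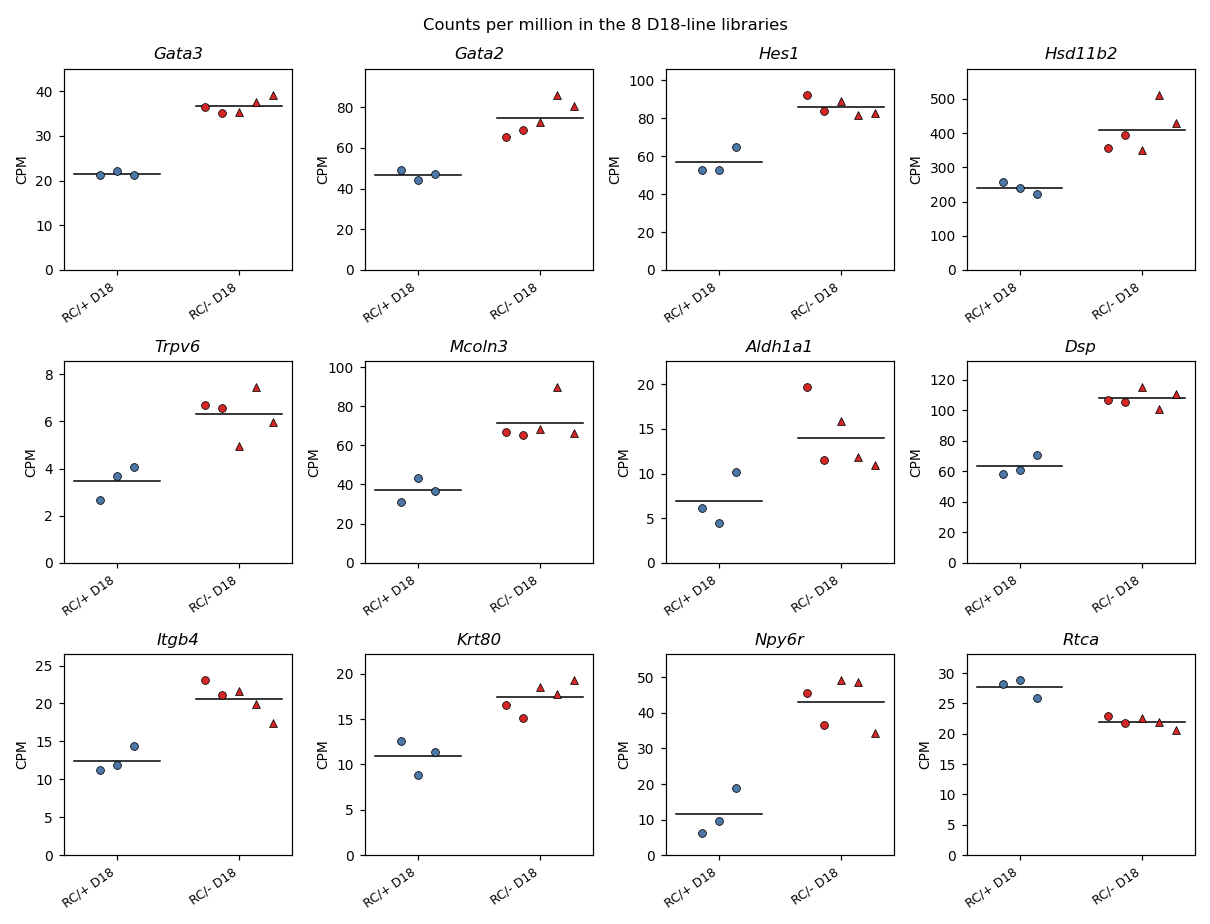
CPM (vertical axis, from 0) of 12 called genes in the 3 RC/+ D18 and 5 RC/- D18 libraries; points are libraries, triangles are RC/- D18 replicates 20 to 22, and lines are group means. In each panel the groups are separate, as for all 60 called genes, which the choice by the same contrast favours. The RC/- D18 circles (replicates 18 and 19) therefore lie on the same side of RC/+ D18 as the triangles. *Rtca* is the gene that is lower.

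Among genes of signalling and cell death, *Npy6r*, a receptor of the neuropeptide Y family, had the largest log2 fold change of the called genes outside muscle and pseudogenes. It stood at 6.27, 9.70 and 19.01 CPM in RC/+ D18 and at 45.7, 36.7, 49.2, 48.7 and 34.4 CPM in RC/- D18 (2.01 ± 0.29 SE, adjusted p = 0.00209). *Pmaip1* and *Eda2r*, both known targets of p53, were higher by 1.39 and 1.22 on the log2 scale. *Pmaip1*, which encodes the BH3 protein Noxa, was at 7.27, 3.10 and 3.30 CPM in the controls and 8.28 to 14.7 CPM in RC/- D18, so the highest control and the lowest RC/- D18 library were close. *S100a14*, a calcium-binding protein of epithelia, was at 2.85 to 5.35 CPM and 8.60 to 17.1 CPM (1.30 ± 0.25, adjusted p = 0.0201).

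*Fgf18*, a fibroblast growth factor, was at 0.305, 0.408 and 0.536 CPM in RC/+ D18 and 1.18 to 1.88 CPM in RC/- D18 (1.60 ± 0.26, adjusted p = 0.00358). *Rrad*, a Ras-related GTPase, rose by 0.83, *Neurl1a*, an E3 ligase related to Notch ligand uptake, by 0.89, the sorting receptor gene *Sort1* by 0.36 and the ubiquitin-conjugating enzyme gene *Ube2h* by 0.30. *Egfem1* rose by 1.13 and *Sag*, the retinal arrestin, by 1.60 from a control level of 0.0893 to 0.218 CPM. Of the remaining coding genes, *Cfap100*, a protein of motile cilia, rose by 1.35, *4930550C14Rik* by 0.93, *Fam167a* by 0.79, *Tmem45b* by 0.64 and *Fam149a* by 0.40. The non-coding genes *5830428M24Rik*, *Gm48890* and *2310043M15Rik* had control levels of at most 0.446 CPM, and *Dubr*, a lincRNA, rose by 0.50. *2310043M15Rik* is annotated antisense to *Dop1b*, with 28% of its exon bases shared on the opposite strand, and the strand setting of the counting is not stated.

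Of the 60 called genes, the pair with the largest log2 fold changes were processed pseudogenes, retrocopies of a spliced mRNA, and 4 of the 5 pseudogenes that passed are copies of *Rplp0*, which encodes a ribosomal stalk protein. *Gm8730* (chromosome 8, 102864845 to 102865798, minus strand) matched the *Rplp0* transcript with 98.7% identity over its 954 bases. *Gm14165* (chromosome 2, 152353615 to 152354566) did so with 97.2%, *Gm9625* (chromosome 13, 67810246 to 67811200) with 97.4% and *Gm6278* (chromosome 16, 85644252 to 85645023) with 96.4% over 670 bases. The same 30 bases of each are set below one another to show how few letters assign a read to a copy, with the bases that differ from *Rplp0* in capitals. The windows are, on GRCm38, chr5:115562442-115562471 (plus strand, exon 6, coding) for *Rplp0*, chr8:102865102-102865131 (minus) for *Gm8730*, chr2:152354280-152354309 (plus) for *Gm14165*, chr13:67810913-67810942 (plus) for *Gm9625* and chr16:85644709-85644738 (plus) for *Gm6278*.
Rplp0: ccagtgtgtgtctgcagatcgggtacccaa
Gm8730: ccagtgtgtgtctgcagatcgggtacccGa
Gm14165: ccagtgtgtgtctgcagatcgggtacccGa
Gm9625: ccagtgtgtgtctgcagatGgggtacccGa
Gm6278: ccagtgtgtgtctgcagatTgggtacccGa
Because the copies are this alike, how their reads were divided between them and *Rplp0* is uncertain.

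*Gm8730* stood at 2.26, 2.00 and 2.28 CPM in RC/+ D18 and at 43.1, 41.8, 38.5, 37.0 and 39.7 CPM in RC/- D18 (log2 fold change 4.15 ± 0.16 SE, adjusted p = 1.11e-14), with replicates 18 and 19 the highest. *Gm14165* was at 0.0871, 0.163 and 0.223 CPM and at 4.91, 5.08, 4.08, 4.05 and 4.02 CPM (4.28 ± 0.32, adjusted p = 1.52e-08). *Gm9625* rose from 0.784 to 1.10 CPM to 2.20 to 3.30 CPM (1.48 ± 0.18, adjusted p = 0.000227), and *Gm6278* from 0.131 to 0.179 CPM to 0.706 to 1.05 CPM (1.94 ± 0.29, adjusted p = 0.00209).

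The 4 copies were divided without overlap in the other lines too. *Gm8730* was at 2.00 to 3.43 CPM in the 9 RC/+ libraries of the 3 lines and at 37.0 to 77.6 CPM in the 15 RC/- libraries. For *Gm14165* the ranges were 0.0395 to 0.375 CPM and 3.87 to 9.28 CPM. *Rplp0* itself did not pass in the D18 line, at 965 to 1049.5 CPM in RC/+ D18 and 883 to 1004 CPM in RC/- D18 (-0.12 ± 0.09, adjusted p = 0.781), and *Rplp0-ps1*, a further copy, differed by -0.12 on the log2 scale (adjusted p = 0.973). The fifth called pseudogene, *Rps13-ps1*, is a copy of *Rps13* with 99.6% identity over 522 bases. It stood at 12.7, 15.2 and 14.01 CPM in RC/+ D18 and 16.9, 28.3, 27.4, 24.9 and 24.4 CPM in RC/- D18, but at 24.2 to 31.3 CPM in unedited RC/+ and 27.8 to 30.1 CPM in RC/+ D53 kidneys, so the RC/+ D18 libraries were lower than the other controls. Over all genes tested, 112 (0.496%) had all 15 RC/- above all 9 RC/+ libraries, among them all 4 *Rplp0* copies.

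**Figure D4:**
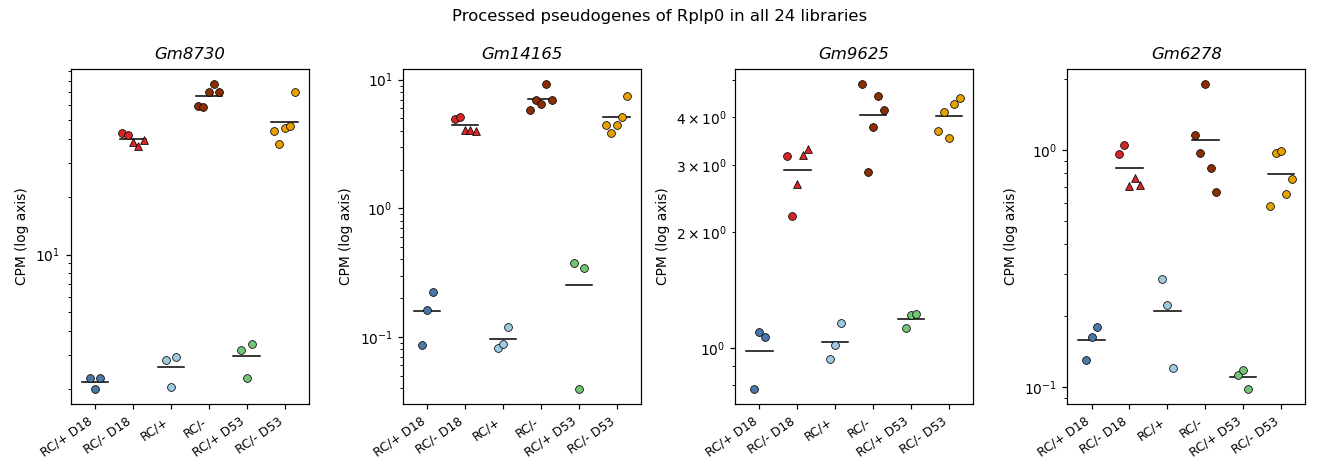
CPM (vertical axis, log scale) of the 4 processed pseudogenes of *Rplp0* in all 24 libraries, by group; points are libraries, triangles are RC/- D18 replicates 20 to 22, and lines are group means. In all 3 lines the RC/- libraries lie above the RC/+ libraries without overlap, for *Gm8730* at 37.0 to 77.6 against 2.00 to 3.43 CPM.

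The 4 muscle genes that passed differed in how far they followed replicates 20 to 22. *Ttn*, the giant sarcomeric protein titin, was at 0.522 to 0.848 CPM in RC/+ D18, 1.18 and 1.77 CPM in replicates 18 and 19, and 11.4 to 12.9 CPM in replicates 20 to 22, and its log2 fold change went from 2.88 to 1.07 without the last 3. *Actn3*, alpha-actinin of fast fibres, went from 1.73 to 0.76, and *Cacna1s*, the calcium channel of the T-tubule, from 2.61 to 1.27. *Mybpc2*, fast myosin-binding protein C, was at 0.0435, 0.530 and 0.625 CPM in RC/+ D18, at 2.10 and 1.10 CPM in replicates 18 and 19 and at 6.58 to 7.85 CPM in replicates 20 to 22. In unedited RC/- kidneys *Mybpc2* was at 11.3 to 26.8 CPM against 0.531 to 0.723 CPM in RC/+ (limma-trend adjusted p = 1.55e-07). The summed muscle level there, which includes *Mybpc2*, was 44.0 to 55.0 CPM. In all 3 lines together every RC/- library was above every RC/+ library for *Mybpc2*. *Ttn*, *Cacna1s* and *Actn3* did not pass in that line.

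The unedited line, which shares no library with the D18 line, showed how these genes behave in kidneys whose *Pkd1* keeps the miR-17 motif. The motif is not the only difference between the lines. Part of the RC/- D18 libraries carried skeletal muscle transcripts at a level that no unedited library reached. The founder of the unedited mice is not given in the sources used here. Which of these a difference between the lines came from was not tested. There 5753 genes (25.5%) were higher and 2744 (12.2%) lower in RC/- than in RC/+. Of the 60 genes called in the D18 line, 54 were also called in the same direction in the unedited line, and 58 had the same sign; *Cacna1s* and *Actn3* had the opposite one. The 54 genes had a D18 log2 fold change of 0.208 to 1.64 times the unedited one, with a median of 0.472. They were chosen by passing in the D18 line, which favours large D18 values. The ratio therefore does not stand for all 8497 genes called in the unedited line. The difference itself was tested by an interaction contrast, which called 3858 of all genes (17.1%) and 41 of the 60. In 38 of the 41 the D18 difference was smaller in size than the unedited one, and in 3, *Cacna1s*, *Actn3* and *Cfap100*, it was larger. For *Cfap100* the RC/+ libraries were at 0.204 to 0.536 CPM in the D18 and 0.401 to 0.796 CPM in the unedited line. Its RC/- libraries were at 0.902 to 1.21 and 0.672 to 0.898 CPM.

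Of the 41 genes, the gap was largest for *Trpv6*, at 37.6 to 69.6 CPM in unedited RC/- kidneys against 4.94 to 7.45 CPM in RC/- D18. Its D18 difference was smaller by 3.28 on the log2 scale (95% interval of the contrast -3.83 to -2.74, adjusted p = 7.61e-08). *S100a14* was at 68.8 to 160 CPM against 8.60 to 17.1 CPM (contrast -3.16, adjusted p = 3.13e-06). *Gata3* was at 94.1 to 115 CPM against 35.03 to 39.2 CPM (contrast -1.25, adjusted p = 2.10e-05), and *Hsd11b2* at 677 to 1367 CPM against 351 to 512 CPM (contrast -1.22, adjusted p = 0.000412). The RC/+ libraries were at 21.2 to 22.1 CPM in the D18 line and 21.6 to 33.3 CPM in the unedited line for *Gata3*, and at 2.66 to 4.06 and 2.25 to 3.14 CPM for *Trpv6*.

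For other genes the contrast between the lines did not pass. *Gm8730* had a contrast of -0.51 (95% interval -0.97 to -0.05, adjusted p = 0.127), *Npy6r* one of -0.22 (-1.07 to 0.63, adjusted p = 0.781) and *Hes1* one of 0.17 (-0.09 to 0.43, adjusted p = 0.405). *Gm14165* had one of -1.05 (-1.98 to -0.12, adjusted p = 0.117), so that for both pseudogenes the interval lay below 0 while the adjusted p missed the threshold. *Npy6r* was at 18.9 to 30.5 CPM in unedited RC/+ and 80.2 to 221 CPM in unedited RC/- kidneys, so the RC/- ranges of the lines did not overlap and the RC/+ ranges met at 18.9 to 19.01 CPM. For *Hes1* the RC/+ libraries were at 52.65 to 64.8 CPM in the D18 and 69.1 to 78.4 CPM in the unedited line. Its RC/- libraries were at 82.0 to 92.4 and 92.5 to 104.7 CPM.

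The reverse reading started from the 8497 genes called in the unedited line. Of these 75.6% had the same sign in the D18 line, and by single RC/- D18 library against the RC/+ D18 mean the share was 80.6% and 75.9% for replicates 18 and 19 and 73.8%, 63.7% and 48.1% for replicates 20, 21 and 22. The spread between libraries was 12.95 percentage points (SD, n = 5), with replicate 22 apart at the low end. This spread leaves out that between the controls. The share became 62.9% without RC/+ D18 replicate 7 and 80.3% without RC/+ D18 replicate 9. It was 63.8% without RC/- D18 replicates 18 and 19 and 80.6% without replicates 20 to 22. No such share was taken over all genes tested. Their median log2 fold change was above 0 in both lines (0.04 in the D18 and 0.14 in the unedited line), which favours equal signs among higher genes.
In the D53 line 554 genes (2.45%) were higher at an adjusted p of 0.05. All 60 genes called in the D18 line had the same sign there, 48 passed in the same direction, and 45 passed in all 3 lines. The share of equal signs over all genes tested was not taken for the D53 line either, where their median was 0.04. Of the 48, 4 were muscle genes, and RC/- D53 libraries carry muscle transcripts as RC/- D18 replicates 20 to 22 do. *Mybpc2*, among these 4, also passed in the unedited line. Of the other 44, *Gata3* was at 43.2 to 61.7 CPM in RC/- D53 against 18.8 to 23.2 CPM in RC/+ D53, and *Trpv6* at 11.4 to 16.3 against 3.29 to 4.65 CPM. *Rps13-ps1*, *Cbll1*, *Pi4k2b* and *Itgav* were among the genes that did not pass there, with log2 fold changes of 0.06, 0.14, 0.09 and 0.08.

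Gene lists of kidney cell types and processes were read by their counts and medians, beside a median of 0.04 over all genes tested. Of all genes tested, 0.261% were called higher, and at an unadjusted p of 0.05 6.74% were higher and 2.17% lower. In the unedited line 25.5% were called higher and 12.2% lower, and the interaction contrast called 17.1%. Of 14 collecting duct genes, 2 passed (*Gata3*, *Hsd11b2*), 6 were higher at an unadjusted p of 0.05 and the median log2 fold change was 0.29. Their summed level overlapped, at 1626 to 2296 CPM in RC/+ D18 and 1969 to 2366 CPM in RC/- D18. The log2 fold change was above 0 for 9 of the 14 and below 0 for 5, among them *Slc4a1*, the anion exchanger of intercalated cells and red cells, at -0.34 (adjusted p = 0.762). *Fxyd4*, a regulator of the sodium pump, was at 47.7 to 66.1 CPM in RC/+ D18 and 76.1 to 94.01 CPM in RC/- D18 (0.65 ± 0.14, adjusted p = 0.0524). The sodium channel subunit gene *Scnn1g* had a value of 0.52 (adjusted p = 0.0575) and *Foxi1*, the transcription factor of intercalated cells, one of 0.62 (adjusted p = 0.0858). The water channel genes *Aqp2* and *Aqp3* had log2 fold changes of -0.32 and -0.02, neither past the test. Of 12 genes of dedifferentiated and cyst epithelium 2 passed (*S100a14*, *Krt80*), with a median of 0.26.

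The lists that describe injury, inflammation and proliferation held no gene past the test. Of 12 tubule injury genes 4 were higher at an unadjusted p of 0.05 (median 0.34). Over all genes tested 6.74% were higher at that p, and 25.5% were called higher in the unedited line. *Lcn2*, the injury marker NGAL, was at 2.87, 3.42 and 7.68 CPM in RC/+ D18 and 21.1, 16.2, 14.4, 9.40 and 6.29 CPM in RC/- D18, so that replicate 22 fell below the highest control (1.53 ± 0.39 SE, adjusted p = 0.119). In unedited RC/- kidneys it was at 220 to 466 CPM. All 15 macrophage genes had a positive log2 fold change (median 0.27, 3 at an unadjusted p of 0.05), against a median of 1.57 and 15 called in the unedited line. Their summed level was 393 to 427 CPM in RC/+ D18 and 474 to 523 CPM in RC/- D18, without overlap. The summed tubule injury level overlapped. Of 14 immediate early genes 7 were higher at an unadjusted p of 0.05 (median 0.33, or 0.16 without replicates 20 to 22), with *Junb* at 35.005 to 44.5 CPM in RC/+ D18 and at 46.2, 47.7, 75.6, 54.5 and 73.0 CPM in RC/- D18.

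Cell cycle genes separated libraries of 1 group more than they separated the groups. *Mki67*, the proliferation antigen, stood at 28.3, 59.5 and 82.4 CPM in RC/+ D18 and at 95.6, 103, 79.9, 53.5 and 20.6 CPM in RC/- D18. The summed level of the 20 genes was 339, 492 and 687 CPM in RC/+ D18, while RC/- D18 replicates 18 and 19 were at 730 and 714 CPM and replicates 20, 21 and 22 at 624, 440 and 243 CPM. The median log2 fold change was 0.12 with all libraries and 0.72 without replicates 20 to 22, and no member passed. The 15 fibrosis genes moved alike by library, with sums of 2593, 3307 and 4441 CPM in RC/+ D18 and 4387, 4870, 3687, 3011 and 2135 CPM in RC/- D18 (median 0.02, or 0.46 without replicates 20 to 22).

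Genes of the proximal tubule, which reabsorbs most of the filtrate, had a median of -0.20 over 20 members, 16 of them below 0, with none past the test or at an unadjusted p of 0.05. In the unedited line the median was -1.39 and 18 were called lower, and the interaction contrast called 18 of the 20. Over all genes tested these shares were 12.2% and 17.1%. The transporter *Slc5a12* was at 517, 457 and 413 CPM in RC/+ D18 and 312, 256, 303, 444 and 458 CPM in RC/- D18, where replicates 21 and 22 lay among the controls. Genes of oxidative phosphorylation had a median of -0.10, with 19 of 20 below 0 and 2 lower at an unadjusted p of 0.05, and fatty acid oxidation a median of -0.10 over 12. Genes of thick ascending limb and distal convoluted tubule had a median of -0.08 over 14, with 10 below 0 and 2 higher at an unadjusted p of 0.05; *Pvalb*, a marker of the early distal convoluted tubule, was at 14.3, 6.44 and 5.04 CPM in RC/+ D18 and 12.2 to 25.6 CPM in RC/- D18.

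Outside skeletal muscle, no marker on the lists of other cells that a kidney sample can include passed. Medians were 0.02 for 12 smooth muscle genes, -0.01 for 10 adipocyte genes, 0.09 for 9 adrenal genes, -0.08 for 7 erythroid genes, 0.19 for 12 lymphocyte genes, 0.07 for 10 urothelium genes, -0.01 for 10 endothelium genes and -0.12 for 10 podocyte genes. The summed adipocyte level was 583 to 920 CPM in RC/+ D18 and 541 to 1386 CPM in RC/- D18, and overlapped. Without replicates 20 to 22 the adipocyte median was -1.69, the urothelium median -0.39 and the adrenal median 0.58. Complement genes (median 0.14), interferon response genes (0.16), 10 Hippo target genes (0.20, 5 at an unadjusted p of 0.05) and 20 genes of cystic disease and the cilium (0.02) also held no gene past the test. At an unadjusted p of 0.05, 6.74% of all genes tested were higher. The summed Hippo target level was 755 to 801 CPM in RC/+ D18 and 852 to 946 CPM in RC/- D18, without overlap.

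**Figure D5:**
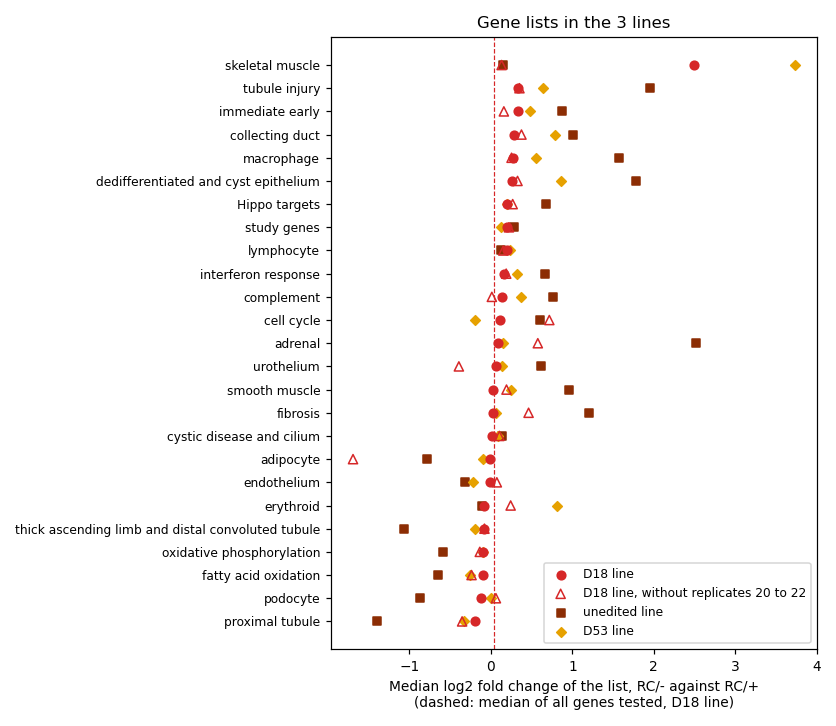
Median log2 fold change of RC/- against RC/+ (horizontal axis) of 25 gene lists; circles are the D18 line, open triangles the D18 line without RC/- D18 replicates 20 to 22, squares the unedited line, diamonds the D53 line, and the dashed line is the median of all genes tested in the D18 line. Apart from skeletal muscle at 2.49, the medians with all 8 D18 libraries lie between -0.20 and 0.34, where the unedited line spans -1.39 to 1.96 apart from the adrenal list at 2.52, for which 1 RC/- library had a summed level of 2126 CPM and the other 4 had 13.3 to 18.5 CPM.

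The 1 gene that was lower and passed, *Rtca*, an RNA 3′-phosphate cyclase that acts on RNA ends, stood at 28.3, 28.9 and 25.9 CPM in RC/+ D18 and at 22.998, 21.9, 22.6, 21.9 and 20.6 CPM in RC/- D18 (-0.33 ± 0.07 SE, adjusted p = 0.0472). It shares 25.4% of its exon bases with a gene on the opposite strand, and its call held in 8 of 20 alternatives, with adjusted p-values of 0.000578 to 0.326. The call was lost in a fit of the D18 groups alone (adjusted p = 0.289), with sex as a covariate (adjusted p = 0.0602), without replicates 20 to 22 (adjusted p = 0.216) and without any single D18 library other than RC/+ D18 replicate 9. Its log2 fold change was -0.11 in the unedited and -0.09 in the D53 line, neither past the test.
Next in order of p were *Slc25a13*, the mitochondrial aspartate-glutamate carrier, at 142 to 169 CPM in RC/+ D18 and 101.4 to 133 CPM in RC/- D18 (-0.36 ± 0.09, adjusted p = 0.0858), and *Apoe*, a lipid carrier protein, at 2278 to 2628 CPM and 1649 to 2076 CPM (-0.39 ± 0.09, adjusted p = 0.0901). *Nr1i2*, the pregnane X receptor, had a value of -0.51 (adjusted p = 0.1), *Tbc1d13* one of -0.32, *Hsd17b2*, a steroid dehydrogenase, one of -0.91, *Mpv17l2* -0.27, *Slc25a45* -0.31, the ceramide enzyme gene *Degs1* -0.24 and *Vsig10* -0.35, with adjusted p-values of 0.1 to 0.135. In all 9 the groups did not overlap, which the choice by p in the same contrast favours. Over all genes tested, RC/- D18 lay entirely below RC/+ D18 for 431 (1.91%).

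None of the 7 genes taken from the study's text passed. *Myc*, the growth-promoting transcription factor, was at 9.14, 8.07 and 13.2 CPM in RC/+ D18 and at 16.1, 13.8, 17.3, 13.9 and 14.5 CPM in RC/- D18 (log2 fold change 0.60 ± 0.16 SE, adjusted p = 0.131), with the groups separate. *Yap1*, the effector of the Hippo pathway, was at 109, 114 and 115 CPM and at 122 to 139 CPM, also separate (0.21 ± 0.05, adjusted p = 0.129). *Creb1* was at 48.4 to 57.9 CPM and 57.4 to 65.3 CPM (0.20 ± 0.08, adjusted p = 0.367) and *Mrc1*, a marker of M2-like macrophages, at 8.97 to 15.4 CPM and 11.1 to 19.6 CPM (0.38 ± 0.19, adjusted p = 0.564). *Pkd2*, which encodes the partner of polycystin-1, was at 249 to 273 CPM and 236 to 265 CPM (-0.05 ± 0.07, adjusted p = 0.926), and *Mettl3*, the m6A methyltransferase, at 20.7 to 23.2 CPM and 20.4 to 25.1 CPM (0.03 ± 0.10, adjusted p = 0.977). As a list chosen by the study, the 7 genes are not independent evidence. The interaction contrast passed for *Myc* (-0.97, adjusted p = 0.0033) and *Mrc1* (-1.67, adjusted p = 0.000118), each with the smaller difference in the D18 line.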

How the data were processed

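Right kidneys of 24 mice were sequenced. The authors trimmed reads with Trim Galore 0.6.3, aligned them to GRCm38 with STAR 2.5.3a and deposited raw counts per gene. The strand setting of the counting is not given in the sources used here. Counts of 54532 genes were scaled to CPM by library totals, and log2 CPM (prior count 2) of the 22570 genes with a mean of at least -3 were fitted by limma-trend (limma 3.58.1, R 4.3.3) with 6 group means over 24 libraries. Tests were two-sided with Benjamini-Hochberg adjustment at 0.05. The fit was also run on simulated counts with known changes. These had no shifts between libraries other than depth, so that run does not bear on how far the calls rest on single libraries. Groups were taken from the labels, sex was read from *Xist* and *Ddx3y*, and totals of 20869159 to 28140795 counts in the D18 libraries limit the precision of low genes. Nothing states more than that each library is 1 mouse, and p-values measure the spread between these mice.

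Alternatives were TMM or DESeq2 size factors, edgeR 4.0.16 and DESeq2 1.42.0 tests, no filter or filterByExpr, a prior count of 0.5, only the groups compared, sex or libraries 20 to 27 as a covariate, other thresholds, and leaving out libraries. Pseudogenes were aligned to transcripts with blastn 2.17.0. The members and lists were chosen with earlier results of these data known. Named by rule were the study's genes, the called genes with the largest change or lowest p, those called without replicates 20 to 22, list members called or lowest in p, and the 10 lower genes with the lowest p. The rest of the 60 called genes, parent genes of pseudogenes and a few list members were named after their values were seen. Results on 2 genes are not reported here.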

Additional observations from a re-analysis of the deposited data

Results flagged for a closer look

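Among the 5 RC/- D18 libraries, 5 of the 75 genes examined had 1 library far from the others by Dixon's test, which chance alone gives in about 1 in 20 groups. *Sort1* was at 147 CPM in replicate 20, beside 127 to 131 CPM in the other libraries. *Mcoln3* stood at 89.7 CPM in replicate 21, beside 65.1 to 68.6 CPM. *Rps13-ps1* was lowest in replicate 18, at 16.9 CPM beside 24.4 to 28.3 CPM. *Spire2* was lowest in replicate 19, at 11.3 CPM beside 15.1 to 15.9 CPM. *4930550C14Rik* was highest in replicate 21, at 10.6 CPM beside 8.67 to 8.95 CPM.

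The RC/- against RC/+ difference was unequal between the D18 and the unedited line by the interaction contrast (limma-trend, adjusted p under 0.05) in 44 of the genes examined. Given as the D18 minus the unedited log2 fold change, 40 contrasts were negative and 4 positive. The most negative were -3.28 for *Trpv6*, -3.16 for *S100a14*, -2.15 for *Cyp4f39*, -2.05 for *Fam167a*, -1.87 for *Nipal1*, -1.78 for *Aldh1a1*, -1.78 for *Itgb4*, -1.78 for *Arhgef4*, -1.74 for *Neurl1a*, -1.72 for *Mcoln3*, -1.71 for *2310043M15Rik*, -1.67 for *Mrc1*, -1.41 for *Fgf18* and -1.39 for *Pmaip1*. Next came -1.25 for *Gata3*, -1.24 for *Rrad*, -1.22 for *Hsd11b2*, -1.22 for *Eda2r*, -1.02 for *Capn5*, -0.97 for *Myc*, -0.95 for *Krt80*, -0.95 for *Egfem1*, -0.90 for *Enc1*, -0.89 for *Spire2*, -0.81 for *4930550C14Rik*, -0.81 for *Dsp* and -0.77 for *Atp8b1*. The rest of the negative contrasts were -0.76 for *Vsig10*, -0.76 for *Esrp1*, -0.74 for *Gata2*, -0.73 for *Tmem45b*, -0.68 for *Sgpp2*, -0.67 for *Col26a1*, -0.65 for *Fam149a*, -0.65 for *Slc26a2*, -0.60 for *Adgrg1*, -0.56 for *Mfsd6*, -0.53 for *Sort1*, -0.53 for *Dubr* and -0.25 for *Ube2h*. The positive contrasts were 0.56 for *Nr1i2*, 1.11 for *Cfap100*, 1.81 for *Actn3* and 2.68 for *Cacna1s*.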

How the results depend on the processing

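Against 60 genes with all libraries, 37 passed with TMM factors, 37 with DESeq2 size factors, 37 in edgeR's quasi-likelihood test, 143 in DESeq2 (112 higher, 31 lower), 12 in a fit of the D18 groups alone, 11 with libraries 20 to 27 as a covariate, 2 without RC/- D18 replicates 20 to 22, 98 without replicates 18 and 19, 96 at an adjusted p of 0.1, 23 at a log2 fold change of at least 1, and 14 to 90 with 1 library left out. The 54 genes also called in the unedited line became 32 with TMM, 32 with DESeq2 size factors, 27 in edgeR, 104 in DESeq2, 12 with the D18 groups alone, 9 with the covariate, 2 without replicates 20 to 22, 35 without an expression filter, and 13 to 78 with 1 library left out. The 48 also called in the D53 line became 30 with TMM, 29 with DESeq2 size factors, 98 in DESeq2, 10 with the D18 groups alone, 8 with the covariate, 2 without replicates 20 to 22, 88 without replicates 18 and 19, and 13 to 60 with 1 library left out. The 3858 unequal genes became 2244 without replicates 20 to 22, 2337 with the covariate, and 2667 to 4243 with 1 library left out. The cause was not tested.

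TMM moved the median of all genes from 0.04 to -0.00030, and the medians of the fibrosis, smooth muscle and cilium lists from just above to just below 0. Over 20 settings, 994 of 1519 gene values kept direction and call, 504 lost the call, 10 gained it and 11 changed sign. *Mettl3* (0.03) became -0.0102 with TMM, -0.00973 with DESeq2 size factors, -0.00841 in edgeR, -0.00768 in DESeq2 and -0.0701 without replicates 18 and 19, and ranged from -0.0163 to 0.0805 with 1 library left out (-0.00169 without RC/+ D18 replicate 8). *Pkd1* (-0.02) became 0.0636 without replicates 20 to 22 and 0.0636 with the covariate, and ranged from -0.0820 to 0.0221 with 1 library left out (0.0199 without RC/- D18 replicate 22). No paired analysis was possible because no replicate number is shared between the groups.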
